A study of Mus musculus with 14 samples.

Results

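The genes described here are 51 members of the bone morphogenetic protein (BMP) and transforming growth factor beta (TGF-beta) pathway in mouse: 16 ligands of the BMP and GDF branch, 7 ligands of the activin, Nodal and TGF-beta branch, the protease Bmp1, 7 antagonists, 8 receptors, 8 Smad proteins and 4 Id genes. They were taken by name, though with earlier results of these data known, out of 21631 protein-coding genes (autosomes and X), which serve as the background. Chromatin immunoprecipitation followed by sequencing (ChIP-seq), which recovers the DNA bound to an antibody's target, was run on basal cells of the epidermis. Every sample came from newborn mice (postnatal day 0) of the genotype Krt14-RFP; Krt10-H2B-GFP, that is, red fluorescent protein tied to the basal keratin Krt14 and a green nuclear protein tied to Krt10, which marks cells that have left the basal layer. Cells of the back skin epidermis were sorted for surface Sca1, strong red and no green signal. Chromatin of 6000000 cells was used for Ring1b (antibody of Cell Signaling) and of 400000 cells for each histone mark, H2AK119ub (Cell Signaling) and H3K27me3 (Millipore). Each antibody had 2 replicates, and every replicate has its own peak list. The labels do not say whether replicates were separate animals or how many pups were pooled, so the spread between them may be technical.

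Ligands of this family are secreted dimers that bring together type I and type II receptor kinases on the cell surface. The activated receptors phosphorylate Smad proteins, which enter the nucleus with Smad4 and change transcription, and the Id genes are classic targets of the BMP branch. In skin, BMP signals restrain hair follicle stem cells and take part in keratinocyte differentiation, TGF-beta signals hold back keratinocyte division, and secreted antagonists such as Noggin set where a signal can act. Ring1b is a catalytic subunit of Polycomb repressive complex 1, which adds ubiquitin to a lysine of histone H2A (H2AK119ub), and H3K27me3 is the product of Polycomb repressive complex 2. Both complexes are known for binding developmental genes, often at CpG-rich promoters that are not transcribed.

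A gene counted as occupied by an antibody when it was named, in each of the replicate lists, on a row of the authors' location class promoter. By this rule 19 of the 51 genes (37.3%) had Ring1b, against 9.17% of all protein-coding genes. H2AK119ub was found at 14 (27.5%, against 6.91%) and H3K27me3 at 15 (29.4%, against 8.87%). All 3 were found at 6 genes (11.8%, against 3.42%), namely Bmp3, Bmp6, Gdf6, Gdf7, Inhbb and Tgfb2, each of them a ligand. With peaks of a deposited p-value of at most 0.05 alone, all 3 remained at 4 of them (7.84%, against 3.05%), without Bmp3 and Tgfb2. Both marks were found at 11 genes (21.6%, against 4.96%). Another 6 genes had Ring1b with no promoter row of either mark in either replicate (11.8%, against 2.81%): Bmp7, Tgfb1, Tgfbr3, Smad3, Smad7 and Id4. That count rested on replicate 2 of Ring1b, since 11 genes met the rule with replicate 1 as the only Ring1b list, where 7.85% of all genes did. Likewise 23 genes (45.1%) had H2AK119ub with replicate 2 as the only list of that mark, where 11.6% of all genes did.

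Counting a peak in at least 1 replicate, Ring1b was at 30 genes (58.8%, against 17.9%), H2AK119ub at 25 (49.0%, against 12.5%) and H3K27me3 at 17 (33.3%, against 12.5%). The replicates divided differently by antibody. Of the 11 genes with Ring1b in 1 replicate only (21.6%, against 8.71%), 9 were in replicate 1, and of the 11 with H2AK119ub in 1 replicate only (21.6%, against 5.60%), 9 were in replicate 2. The Ring1b peaks of those 9 genes in replicate 1 had deposited p-values from 0.0767 (Gdf1) to 0.291 (Fst), all above 0.05. In that list 34.6% of all peaks had a deposited p-value above 0.05. H3K27me3 was in 1 replicate only at 2 genes (3.92%, against 3.60%), a share near that of all genes. At least 1 antibody was in both replicates at 27 genes (52.9%, against 14.7%), a peak was in 1 replicate only at 9 genes (17.6%, against 11.0%), and 36 genes had a promoter row in any of the 6 lists, as had 25.7% of all genes. The remaining 15 had none.

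**Figure D1:**
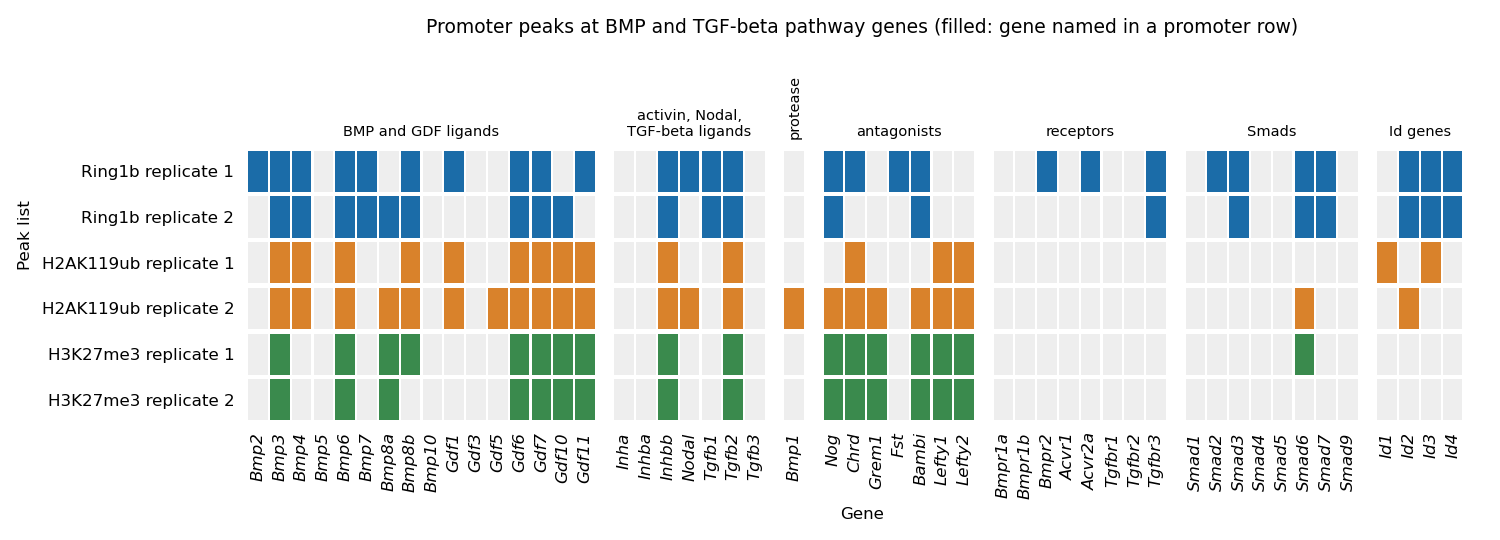
Each column is 1 of the 51 genes, grouped by role, and each row is 1 of the 6 replicate peak lists. A filled square means that the list named the gene in a promoter row. The 8 receptors have no filled square for H2AK119ub or H3K27me3, each of which 12.5% of all genes had in at least 1 replicate. Of the 7 antagonists, 6 have both H3K27me3 squares.

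The antibodies were spread unevenly over the roles, which hold too few genes for a comparison beyond counts. Over all genes the shares were 9.17% for Ring1b, 6.91% for H2AK119ub and 8.87% for H3K27me3. Of the 23 ligands of both branches, 10 had Ring1b (43.5%), 11 had H2AK119ub (47.8%) and 9 had H3K27me3 (39.1%). Antagonists had H3K27me3 at 6 of 7 genes (85.7%) and Ring1b at 2 (28.6%). No receptor had either mark in any replicate, and 1 of 8 had Ring1b (12.5%). Among 8 genes these receptor counts are near the shares of all genes. Smads had Ring1b at 3 of 8 genes (37.5%) and Id genes at 3 of 4 (75%). No gene of either role had a promoter row of a mark in both replicates, in groups this small also near the shares of all genes. Because the lists came from a sorted population, fewer cells with a mark and less of the mark per cell cannot be told apart.

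The strength of a peak is given here as the ratio of ChIP reads to input reads that the authors counted inside it. The ratio was not scaled for library size, so it is compared within an antibody only. Its 95% interval (exact binomial) covers counting error alone. Over the 19 genes with Ring1b in both replicates the median of the mean ratio was 2.39, and over all 1984 genes with Ring1b it was 2.56, with a middle range (quartiles) of 2.09 to 3.37. The Ring1b peaks at the 19 genes had a median length of 2926 bp, against 1807 bp over all genes. For H2AK119ub the median ratio was 2.24 against 2.09 and the median length 2243 bp against 3672 bp. For H3K27me3 the median ratio was 8.44 against 8.73 and the median length 6352 bp against 6196 bp. The median ratios of the pathway genes thus lay inside the quartiles of all genes for each antibody.

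Bmp6 and Inhbb had the highest mean Ring1b ratios of the 6 ligands that carried all 3, within the BMP and GDF branch and the activin, Nodal and TGF-beta branch respectively. Their promoters are shown beside that of Bmp5, the first BMP ligand with no peak in any list. Inha and Inhba, with no peak, had windows inside their own gene spans and are not shown. The promoters of Acvr1, a type I receptor with no peak, and Id2 were chosen after their values were seen. The sequences are the 250 bases before the annotated start in RefSeq (GRCm38.p6, the assembly behind mm10), written 5′ to 3′ on the gene's strand, with every CpG dinucleotide in capitals. They lie at chr13:38345466-38345715 on the plus strand for Bmp6, chr9:75775115-75775364 on the plus strand for Bmp5, chr1:119422249-119422498 on the minus strand for Inhbb, chr2:58566829-58567078 on the minus strand for Acvr1 and chr12:25096093-25096342 on the minus strand for Id2.
Bmp6: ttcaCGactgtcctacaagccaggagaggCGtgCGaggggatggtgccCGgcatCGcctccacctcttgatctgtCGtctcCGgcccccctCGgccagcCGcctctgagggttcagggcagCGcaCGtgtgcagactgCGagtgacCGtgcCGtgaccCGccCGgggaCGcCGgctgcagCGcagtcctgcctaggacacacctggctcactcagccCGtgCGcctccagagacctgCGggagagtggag
Bmp5: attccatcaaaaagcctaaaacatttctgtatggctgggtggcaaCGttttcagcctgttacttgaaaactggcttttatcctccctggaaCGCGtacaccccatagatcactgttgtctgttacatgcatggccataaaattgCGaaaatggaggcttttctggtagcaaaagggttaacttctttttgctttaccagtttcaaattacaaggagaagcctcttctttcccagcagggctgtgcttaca
Inhbb: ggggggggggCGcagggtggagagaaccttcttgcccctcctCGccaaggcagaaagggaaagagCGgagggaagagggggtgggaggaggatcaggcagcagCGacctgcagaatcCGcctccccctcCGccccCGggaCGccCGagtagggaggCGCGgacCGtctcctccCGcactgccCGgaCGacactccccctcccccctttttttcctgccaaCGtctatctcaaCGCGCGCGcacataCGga
Acvr1: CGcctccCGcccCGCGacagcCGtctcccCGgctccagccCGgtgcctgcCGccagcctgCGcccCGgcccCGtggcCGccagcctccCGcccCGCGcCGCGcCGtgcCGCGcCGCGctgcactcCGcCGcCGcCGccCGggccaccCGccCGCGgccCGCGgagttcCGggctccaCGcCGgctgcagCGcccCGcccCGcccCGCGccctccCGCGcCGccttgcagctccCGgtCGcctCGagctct
Id2: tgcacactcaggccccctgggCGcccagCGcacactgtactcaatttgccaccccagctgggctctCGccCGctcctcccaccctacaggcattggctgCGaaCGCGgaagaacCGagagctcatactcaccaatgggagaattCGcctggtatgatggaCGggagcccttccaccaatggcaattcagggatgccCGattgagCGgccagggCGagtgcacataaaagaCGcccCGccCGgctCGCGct
Bmp6 held 22 CpG dinucleotides in these bases, Inhbb 21, Id2 18, Bmp5 4 and Acvr1 46. The Bmp6 and Inhbb promoters were thus richer in CpG than that of Bmp5, but the Acvr1 promoter, named in no list, was the richest of the 5. At Inhbb the Ring1b peak of replicate 2 lay 122 bp inside the gene and did not cover the printed bases.

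Bmp6 is a BMP ligand made in the hair follicle niche and in the liver, where it regulates iron. It had the second highest mean Ring1b ratio of all members. Replicate 1 had 178 ChIP reads over 38 input reads in its Ring1b peak (chromosome 13, 38344865 to 38347042), a ratio of 4.68 with an interval of 3.29 to 6.84. Replicate 2 had 138 over 43, a ratio of 3.21 (2.26 to 4.63). Both peaks covered the annotated start. H2AK119ub gave ratios of 2.51 and 2.35, and H3K27me3 gave 12.5 and 7.45. The H3K27me3 ratio of replicate 2 was above that of 96.5% of the peaks in its list.

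Gdf7 and Gdf6 belong to the growth and differentiation factors of joints and the nervous system. At Gdf7 the Ring1b peaks held 645 reads over 169 input reads in replicate 1 and 478 over 128 in replicate 2, ratios of 3.82 and 3.73 that differed less between replicates than those of any other member with Ring1b in both. H2AK119ub gave 1.87 and 2.34. H3K27me3 gave 21.9 and 6.81, and the former was the highest H3K27me3 ratio of any member. At Gdf6 the Ring1b ratios were 3.36 and 2.72, over peaks of 7115 bp and 6194 bp, the longest Ring1b peaks of any member in either list. H2AK119ub gave 1.93 and 2.49 and H3K27me3 15.1 and 6.92. Gdf6 also had a further Ring1b peak inside the gene in both replicates (chromosome 4, 9857706 to 9860401 in replicate 1) with ratios of 1.93 and 1.30, and H3K27me3 peaks covered 100% of the gene in replicate 1 and 68.1% in replicate 2.

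Bmp3, an atypical BMP ligand that opposes bone-forming BMPs, carried all 3 with weaker Ring1b. Its Ring1b ratios were 2.51 and 1.54, its H2AK119ub ratios 1.30 and 1.47 and its H3K27me3 ratios 7.28 and 3.22. The H2AK119ub interval of replicate 1 (0.955 to 1.77) reached below a ratio of 1, and the mean H2AK119ub ratio of Bmp3, 1.38 ± 0.119 (SD, n = 2), was the lowest among the 14 genes with that mark.

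Other BMP ligands carried part of the set. Bmp4, which patterns the embryo and is made by the dermal papilla, had Ring1b ratios of 2.77 and 2.17, from 330 and 247 ChIP reads. Its H2AK119ub ratio was 2.13 in both replicates, and no H3K27me3 list named it. The Bmp4 Ring1b peaks covered 79.4% and 77.6% of the gene. Bmp7, a ligand of kidney and eye development, had Ring1b ratios of 2.02 and 2.19 and no promoter peak of either mark, though 1 H2AK119ub peak of replicate 2 lay in its gene body (ratio 2.75). Bmp8b, a ligand of the germ line, had Ring1b at 3.67 and 2.23, H2AK119ub at 2.71 and 2.80 and H3K27me3 in replicate 1 only, at 7.92. Bmp8a had H3K27me3 at 19.2 and 7.91, above 98.0% and 98.2% of the peaks in the respective lists, with Ring1b (2.15) and H2AK119ub (2.86) in replicate 2 only. Bmp8a and Bmp8b are close copies that neighbour each other on chromosome 4, so reads may have been placed at the wrong copy, and their values are uncertain.

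Gdf10, a relative of Bmp3, and Gdf11, which patterns the trunk, had both marks and Ring1b in 1 replicate. Gdf10 gave H2AK119ub ratios of 2.74 and 2.86, H3K27me3 ratios of 9.81 and 4.28, and a Ring1b ratio of 2.30 in replicate 2. Gdf11 gave 2.00 and 2.12 for H2AK119ub, 12.8 and 3.34 for H3K27me3, and 1.86 for Ring1b in replicate 1. The H2AK119ub peaks of its replicates shared no base. The H3K27me3 peaks with the most reads lay upstream of the gene, and replicate 1 held a further promoter peak inside it, with 153 reads over 19. Gdf1, a ligand of left-right patterning, had Ring1b in replicate 1 only and H2AK119ub in both replicates. For H2AK119ub it had 39 reads over 25 in replicate 1 (ratio 1.56, interval 0.92 to 2.69, reaching below 1). The overlapping H2AK119ub peak of replicate 2 had 68 over 32. The strongest Gdf1 peak of replicate 2 (ratio 2.98) was a different one, whose row also named Cers1. Gdf1 shares a transcript with Cers1, so that assignment is uncertain. Bmp2 had Ring1b in replicate 1 only (ratio 1.71), and Gdf5 had H2AK119ub in replicate 2 only (2.75). Bmp5, Bmp10 and Gdf3, ligands of the skeleton, heart and early embryo, had no promoter peak in any list.

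Inhbb, which encodes a subunit of activin B, had the highest mean Ring1b ratio of all members, 4.25 ± 0.327 (SD, n = 2). Replicate 1 had 221 reads over 55 (4.02, interval 2.98 to 5.50; chromosome 1, 119419807 to 119423657) and replicate 2 had 112 over 25 (4.48, 2.88 to 7.22). The H2AK119ub ratios were 2.24 and 2.84, in peaks of 6550 bp and 11559 bp, the latter the longest H2AK119ub peak at a member's promoter. The H3K27me3 ratios of the peaks with the most reads were 10.0 and 6.62. Their intervals overlapped, unlike those of the other 14 genes with this mark. The H3K27me3 peak described for replicate 1 began 1580 bp inside the gene. That list held a further promoter peak for Inhbb with a higher ratio, 13.3 (333 reads over 25). Its interval was not computed, so the overlap of intervals holds only for the peaks described. Inhba, the subunit of activin A, and Inha, the inhibin subunit, had no row in any list, although a Ring1b peak named for the neighbouring gene Obsl1 lay within 2000 bp of Inha in replicate 1.

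Tgfb2 and Tgfb1 encode TGF-beta ligands that restrain keratinocyte growth, and their promoters differed. Tgfb2 had Ring1b in 310 reads over 78 in replicate 1 and 273 over 94 in replicate 2, ratios of 3.97 and 2.90. Its H2AK119ub ratios were 1.50 (interval 0.849 to 2.70, reaching below 1) and 1.93, and its H3K27me3 ratios 8.40 and 4.51. H3K27me3 continued into the gene, where 4 peaks covered 76.1% of the Tgfb2 span in replicate 1 and 36.2% in replicate 2, while Ring1b covered 4.26% and 4.86%. Tgfb1 had the weakest Ring1b of the 19, with 81 reads over 53 (1.53, interval 1.07 to 2.20) and 54 over 44 (1.23, 0.809 to 1.87), and neither mark. The deposited p-values of the Tgfb1 peaks were 0.359 and 0.418, and the interval of replicate 2 reached below a ratio of 1. Tgfb3 had no promoter peak, and Nodal, the ligand of mesoderm and left-right patterning, had Ring1b in replicate 1 only (2.10) and H2AK119ub in replicate 2 only (1.69). Bmp1, the protease that trims procollagens and cuts Chordin, was named in 1 H2AK119ub row of replicate 2, a row that also named Sftpc.

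**Figure D2:**
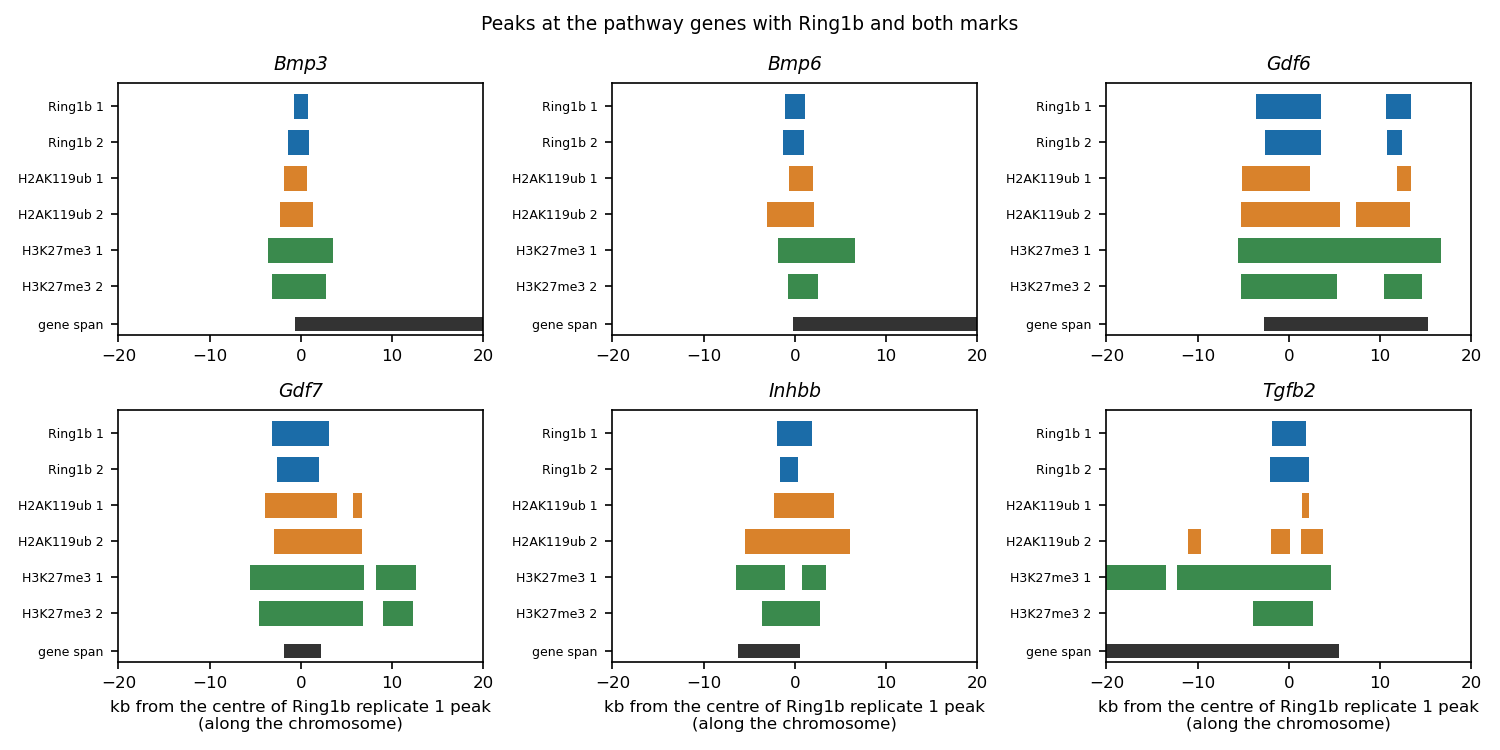
Peaks of the 6 replicate lists around the 6 ligands that carried all 3, plotted in kb along the chromosome from the centre of the Ring1b peak of replicate 1, with the gene span below. At Tgfb2 the H3K27me3 peaks of replicate 1 run on into the gene while Ring1b stays at the promoter. The gene-body H3K27me3 peaks of replicate 2 lie beyond the plotted range. At Gdf6 Ring1b and H2AK119ub have a further peak inside the gene in both replicates and H3K27me3 in replicate 2. The H3K27me3 peak of replicate 1 spans the whole Gdf6 gene.

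H3K27me3 was in both replicates at every antagonist but Fst. Nog, whose product Noggin traps BMP ligands, had Ring1b ratios of 2.69 and 2.25 and H3K27me3 ratios of 14.5 and 3.58, with H2AK119ub in replicate 2 only (2.00). Bambi, a receptor decoy without a kinase, had the same combination, with Ring1b at 2.60 and 2.09, H3K27me3 at 7.48 and 2.39 and H2AK119ub at 1.61 in replicate 2. Its H3K27me3 ratio of replicate 2 was above that of 1.44% of the peaks in the list, the lowest standing of the 15 genes with this mark. Chrd, which encodes Chordin, another BMP trap, had H2AK119ub at 2.05 and 2.51 and H3K27me3 at 12.9 and 4.86, with Ring1b in replicate 1 only (1.88). The Chrd rows also named the adjacent gene Thpo, and the lists do not say which promoter they belong to. Grem1, which encodes Gremlin, had H3K27me3 at 12.3 and 4.60, H2AK119ub in replicate 2 only (2.50) and no Ring1b.

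Lefty1 and Lefty2, inhibitors of Nodal, were the 2 members with both marks and no Ring1b peak in either replicate (3.92%, against 0.883% of all genes). Lefty1 had 74 H2AK119ub reads over 35 input reads in replicate 1 and 115 over 58 in replicate 2, ratios of 2.11 and 1.98, and H3K27me3 ratios of 15.5 and 5.06. Lefty2 had 31 over 9 and 108 over 48, ratios of 3.44 (interval 1.60 to 8.23) and 2.25 (1.59 to 3.23), and H3K27me3 ratios of 11.2 and 5.11. The genes are neighbouring copies on chromosome 1, so the placing of reads between them is uncertain. Fst, whose product Follistatin binds activin, had Ring1b in replicate 1 only (1.68) and no mark.

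The receptors, with Ring1b in both replicates at 1 of 8 genes (12.5%, against 9.17% of all genes), lay near the background. Tgfbr3, the co-receptor betaglycan, was the only one with Ring1b in both replicates, with 47 reads over 22 (2.14, interval 1.26 to 3.72) and 52 over 32 (1.63, 1.03 to 2.61). The deposited p-values of these peaks were 0.0823 and 0.0761. Bmpr2 and Acvr2a, type II receptors for BMPs and activins, had Ring1b in replicate 1 only, with ratios of 2.00 and 1.76. The type I receptors Bmpr1a, Bmpr1b, Acvr1 and Tgfbr1 and the type II receptor Tgfbr2 had no promoter peak in any list. A missing row shows only that the authors' caller listed no peak for the gene.

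The inhibitory Smads, Smad6 and Smad7, and the TGF-beta and activin effector Smad3 had Ring1b in both replicates. Smad6 had 319 reads over 107 in replicate 1 (2.98, interval 2.39 to 3.75; chromosome 9, 64018423 to 64023508) and 182 over 50 in replicate 2 (3.64, 2.65 to 5.08), the highest mean Ring1b ratio of any member that is not a ligand, 3.31 ± 0.466 (SD, n = 2). Its promoter rows of the marks came from opposite replicates, H2AK119ub in replicate 2 (2.45) and H3K27me3 in replicate 1 (7.56). An H2AK119ub peak of replicate 1, listed as gene body (2.25), lay wholly inside the Ring1b peak. Ring1b and H2AK119ub peaks at Smad6 thus shared bases in both replicates (831 and 1647 bp). Smad3 gave Ring1b ratios of 2.05 and 1.56 and Smad7 of 1.98 and 1.60, both with neither mark at the promoter. Away from the promoter, each H2AK119ub replicate had a peak of the location class distal that named Smad7 (2.64 in replicate 1, 1.72 in replicate 2). These peaks lay at different places and shared no base, so neither was found in both replicates. Replicate 2 alone had H2AK119ub peaks for Smad3, in the gene body (1.43) and distal (1.64). Smad2, the partner of Smad3, had Ring1b in replicate 1 only (2.33). The BMP effectors Smad1, Smad5 and Smad9 and the common partner Smad4 had no promoter peak in any list.

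Id genes encode helix-loop-helix proteins that block differentiation factors from binding DNA. Id2 had Ring1b over 309 reads and 125 input reads in replicate 1 and 216 and 94 in replicate 2, ratios of 2.47 and 2.30. Its Ring1b peaks reached 5076 and 5009 bases upstream of the start, farther than those of the other members with an annotated start in the table. The Id2 H2AK119ub peak of replicate 2 (1.97) lay 1723 bases downstream of the start. Id4 had Ring1b at 1.80 and 2.08 with neither mark, in rows that also named the adjacent transcript A330033J07Rik. Id3 had Ring1b at 1.96 and 1.57, with deposited p-values of 0.127 and 0.121, and H2AK119ub in replicate 1 only (1.47). The intervals of its Ring1b peak of replicate 2 (0.957 to 2.62) and of its H2AK119ub peak (0.946 to 2.31) reached below 1. Id1 had H2AK119ub in replicate 1 only (1.74) and no Ring1b.

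**Figure D3:**
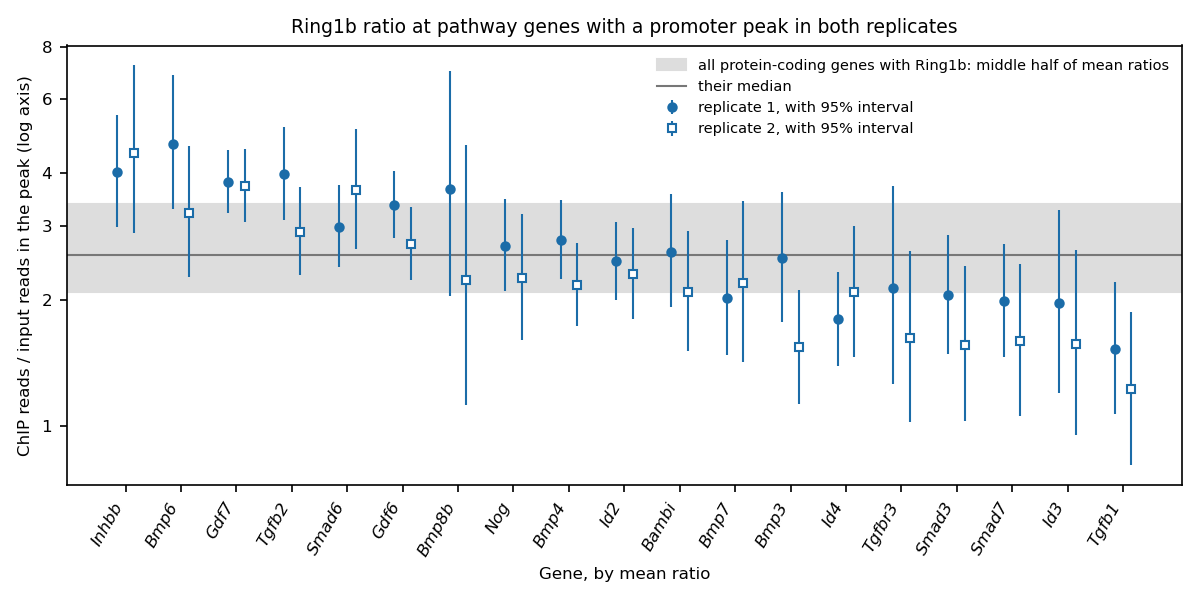
Ring1b ratio of ChIP to input reads in the promoter peak (log axis) for the 19 genes with a peak in both replicates, ordered by mean; circles are replicate 1, squares replicate 2, bars the exact binomial 95% interval, and the grey band the quartiles of all 1984 genes. Inhbb and Bmp6 stand highest and Tgfb1 lowest, and the intervals of the replicates overlap at all 19 genes.

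Ordered by mean Ring1b ratio, the genes ran from Inhbb (4.25), Bmp6 (3.95), Gdf7 (3.78) and Tgfb2 (3.44), which all carried both marks, through Smad6 (3.31), Gdf6 (3.04) and Bmp8b (2.95), to Smad7 (1.79), Id3 (1.77) and Tgfb1 (1.38). No neighbours in this order were separated by more than their SDs. The 6 genes with neither mark had means from 1.38 (Tgfb1) to 2.10 (Bmp7), and the 6 with all 3 from 2.03 (Bmp3) to 4.25, so the ranges met at Bmp3. Replicate 1 was the higher at 15 of 19 genes. For H2AK119ub, replicate 2 was the higher at 11 of 14 genes, again with all intervals overlapping, and means ran from 2.85 ± 0.845 (Lefty2) to 1.38 ± 0.119 (Bmp3; SD, n = 2).

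For H3K27me3, replicate 1 was the higher at 15 of 15 genes, with median ratios of 12.5 and 4.86 in replicates 1 and 2. Over the whole lists the medians were 8.31 and 4.69, and input reads in peaks were 11.7 and 22.2 per kb. The part of this input difference in the ratios was not tested. Means ran from 14.3 ± 10.6 (Gdf7) to 4.93 ± 3.60 (Bambi, SD, n = 2), and no neighbours were separated by more than their SDs. These SDs include the difference between the 2 lists. After division by each list's median, Gdf7 stood at 2.04 ± 0.830 and Bambi at 0.705 ± 0.275. On that scale Tgfb2 (0.986 ± 0.0339) and the next gene, Bmp3 (0.782 ± 0.133), were separated by more than their SDs.

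**Figure D4:**
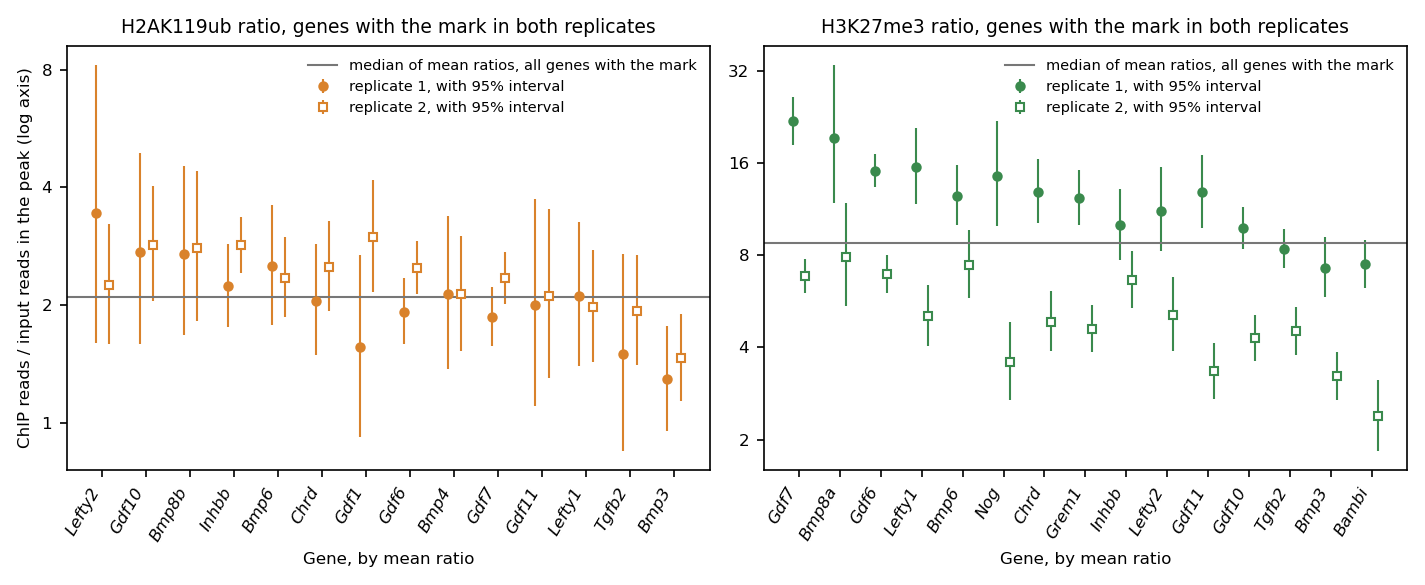
ChIP to input ratio (log axes) for H2AK119ub at 14 genes and H3K27me3 at 15 genes with the mark in both replicates; circles are replicate 1, squares replicate 2, bars the exact binomial 95% interval, and the line the median over all genes with the mark. H3K27me3 replicate 1 lies above replicate 2 at every gene shown.

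Peaks of different antibodies at a promoter were compared by position. At each of the 8 genes with Ring1b and H2AK119ub, and each of the 8 with Ring1b and H3K27me3, the peaks shared at least 1 base in both replicates. Requiring that the overlap fill 50% of the shorter peak kept all 8 for H2AK119ub but 5 for H3K27me3, without Bambi, Inhbb and Nog. Between replicates the peaks with the most reads shared bases at 19 of 19 genes for Ring1b, 15 of 15 for H3K27me3 and 12 of 14 for H2AK119ub, without Gdf1 and Gdf11. With every promoter peak of a gene compared, Gdf1 also shared bases, which gave 13 of 14 for H2AK119ub. Among members with an annotated start in the table, the Ring1b peak covered that start at 11 of 18 genes in replicate 1 and 8 of 14 in replicate 2.

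CpG content was read from the RefSeq windows of 300 bases (250 before and 50 after the start), which 33 of the 51 genes had. Their median was 25 CpG dinucleotides, against 13 over 21045 windows of all protein-coding genes. The 2 sides were not chosen alike. For the 4 members with several windows (Gdf1, Bmpr1b, Tgfbr1 and Smad5) the window with the most CpG was used. The background kept every window of its 17274 genes. This choice favours higher counts at those 4 members, here and in the letter searches below. By Ring1b state the medians lay close together, with 24 at the 12 genes with Ring1b in both replicates, 28.5 at the 8 with Ring1b in 1 replicate and 28 at the 13 with none. The 12 genes with no peak in any list had a median of 23 and ran from 3 (Bmp10) to 51 (Acvr1), with Bmpr1a (48), Smad5 (36) and Tgfbr1 (34) also rich in CpG. The letters GGCGCC, which read the same on both strands, were found in 11 of the 33 windows (33.3%), against 15.5% of all windows. The letters TATAAA, searched on both strands, were in 3 (9.09%), against 12.7%. GGCGCC holds a CpG, so it is more often present where CpG is frequent.

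**Figure D5:**
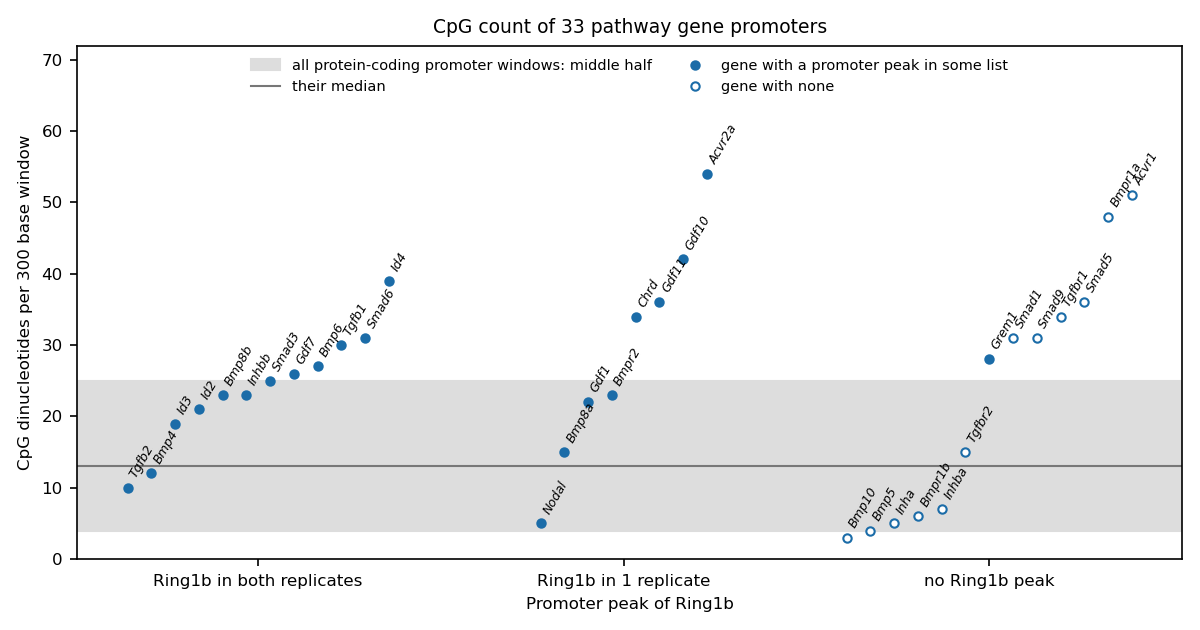
CpG dinucleotides in the promoter window of 300 bases for the 33 genes in the RefSeq table, by the number of replicates with a Ring1b promoter peak; each point is a gene, open where no list named it, and the grey band and line are the quartiles and median of all windows. A gene with several windows is shown by the one with the most CpG, while the band and line hold every window. The 3 classes span much of the same range, and Acvr1 and Bmpr1a lie near the top without a Ring1b peak.

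A wider list of 48 genes of the same pathway was read in the same way. Ring1b was at 9 of them (18.8%), H2AK119ub at 7 (14.6%), H3K27me3 at 8 (16.7%) and all 3 at 2 (4.17%), while 27 had no promoter row in any list. Over all genes these shares were 9.17%, 6.91%, 8.87% and 3.42%, so the share with all 3 was near that of all genes. The 2 with all 3 were Hjv, the BMP co-receptor hemojuvelin, and Bmper, a secreted BMP-binding protein. None of the 8 further ligands in that list had Ring1b in both replicates. Of the 12 further receptors and co-receptors, 3 had H3K27me3 in both replicates (Acvr1c, a type I receptor, Hjv, and Tdgf1, a Nodal co-receptor), 2 had Ring1b and 1 had H2AK119ub.

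The lists of the whole series held 3058 to 4452 Ring1b peaks, 3800 to 5712 H2AK119ub peaks and 3124 to 6040 H3K27me3 peaks a replicate. Library totals were not given, so depth is unknown. Genes that mark cell types were also read. Of 6 basal keratinocyte genes (Krt5, Krt14, Trp63, Itga6, Itgb4 and Col17a1), 0 had a promoter peak in any list, where 25.7% of all genes had one. Of 5 genes of Merkel cells, the touch receptors of the epidermis, 4 (Atoh1, Sox2, Krt8 and Isl1) carried all 3, against 3.42% of all genes. Krt20 had no peak. Of 4 fibroblast genes 3 had both marks (against 4.96%) and Col1a2 had no peak. Of 3 endothelial genes Kdr carried all 3, and Pecam1 and Cdh5 had no peak. Of 5 genes of the suprabasal layers Lor had Ring1b in both replicates and Krt1 had H2AK119ub in replicate 2 only. Krt10, Ivl and Flg had no peak. None of the 4 melanocyte or 3 immune genes had a peak. Sets this small can hold 0 at the share of all genes. Peak lists do not measure expression, so they do not show how pure the sort was.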

How the data were processed

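Peak lists were read for 6 of the 14 samples, 2 replicates each of Ring1b, H2AK119ub and H3K27me3, with a union list per antibody. The other 8 samples were not analysed here. Groups and replicate numbers came from the sample titles. The members and gene lists were chosen with earlier results of these data known.

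Listed in the submitters' processing notes are the build mm10 and MACS2 2.1.0, SAMtools 0.1.19, Bowtie2 2.2.3, Bowtie 1.1.1 and Trim Galore 0.4.1. Their roles, and whether coordinates start from 0 or 1, were not given in the sources used here; coordinates stand as listed. Per the file headers, the authors deposited read counts of ChIP and input on each strand inside each peak, the maximum height of its coverage signal and a p-value whose test is not named. Peaks had been called per replicate, none shorter than 500 bp (Ring1b, H2AK119ub) or 2003 bp (H3K27me3).

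From these files the gene names of promoter rows were counted, and ChIP reads were divided by input reads in each peak with an exact binomial (Clopper-Pearson) 95% interval. Where several promoter peaks named a gene, the peak described is the one with the most ChIP reads. Of 7264 gene names, 7074 matched a RefSeq symbol, 177 a synonym and 13 none. No test was made over genes, which are not replicates. All 51 members are accounted for, with replicate values where an antibody was in both lists. The counting was tested on simulated data. Python 3.11.15, pandas 2.3.3, SciPy 1.17.1 and matplotlib 3.10.9 were used. Alternatives were other location rules, p-value limits of 0.05 and 0.001, the union lists, each replicate left out, scaled and summed ratios and a stricter overlap.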

Additional observations from a re-analysis of the deposited data

How the results depend on the processing

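Of 49 alternative values, 36 stayed within 1.5 times the reported count or within 1 SD of the reported ratio, and 13 did not. Shares over all genes stand in brackets. Genes with Ring1b and neither mark numbered 3 when peaks of any location counted (2.69%), 1 (Id2) at a p-value of at most 0.001 (0.661%) and 11 in the union lists (8.96%). None of the 6 reported genes remained at the limit of 0.001. Id2 met the rule there because its H2AK119ub promoter peak, with a deposited p-value of 0.0374, no longer counted. At a p-value of at most 0.001 the counts were 10 for Ring1b (3.91%), 7 for H2AK119ub (3.65%), 4 for all 3 (1.86%) and 15 for H3K27me3 (8.87%). Union lists gave 30 for Ring1b (17.8%), 24 for H2AK119ub (12.1%) and 13 for all 3 (5.82%). Requiring a peak over the promoter window, with the name rule kept for the 18 members that had no window, gave 9 for H2AK119ub (4.64%). Of these, Bmp3, Gdf6, Lefty1 and Lefty2 were counted by name. The same rule gave 4 for all 3 (2.42%), without Gdf7 and Inhbb. With 1 replicate left out, which leaves a single list to meet the rule, counts ran from 21 to 28 for Ring1b (10.7% to 16.3%), 16 to 23 for H2AK119ub (7.82% to 11.6%), 15 to 17 for H3K27me3 (8.89% to 12.4%), 6 to 8 for all 3 (3.43% to 4.07%) and 6 to 11 for Ring1b with neither mark (2.81% to 7.85%). The median Ring1b ratio was 2.12 over the 28 genes of replicate 1 alone and 2.19 over the 21 of replicate 2 alone; over the same 19 genes it was 2.60 and 2.19. It was 1.02 after division by each list's median, a change of scale. Ring1b and H3K27me3 peaks overlapped at 5 genes under the 50% rule. No paired analysis was possible because the results come from counts with no test. Depth is unknown, so a missing peak cannot be told apart from too few reads.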
